A study of Mus musculus with 12 samples.

Results

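The genes described here encode the mouse receptors that bind the Fc part of IgG, together with the signalling chain that several of them share. They were taken by symbol and number 6 of the 38739 symbols in the table: the activating receptors Fcgr1, Fcgr3 and Fcgr4, the inhibitory receptor Fcgr2b, the shared chain Fcer1g and the neonatal Fc receptor Fcgrt. All 6 passed the filter on low values, which kept 9855 symbols. RNA had been sequenced from bone marrow-derived macrophages (BMDMs), which are macrophages grown from marrow precursors in culture. The 12 libraries fell into 4 groups of 3, WT UT (wild-type, media control), WT LPS, cGAS-/- UT and cGAS-/- LPS. WT mice were C57BL/6J, and cGAS-/- mice lacked the DNA sensor cGAS in every cell on the same background. Per the methods all were male and 8 weeks old. The mice of each genotype came from a different source, so genotype and origin cannot be told apart. The labels give E. coli 026:B6 LPS at 100 ng/mL for 1 h, whereas the methods give 150 ng/mL for 24 h, and the labels' extraction step names neutrophils.

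Fc gamma receptors let macrophages take up IgG-coated particles and respond to immune complexes. The activating receptors signal through the Fc receptor gamma chain, whose immunoreceptor tyrosine-based activation motif (ITAM) is phosphorylated by Src family kinases and then recruits Syk. Fcgr2b instead carries an inhibitory motif (ITIM) in its own tail, which recruits the phosphatase SHIP-1, so that the balance of activating over inhibitory receptors on a cell sets its threshold for activation by immune complexes. Fcgrt is of another kind: it resembles MHC class I, pairs with beta-2-microglobulin and protects IgG and albumin from breakdown inside cells.

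The motifs that give the receptors their opposite roles are shown first, as read from the GENCODE reference transcripts on GRCm39. The Fcer1g ITAM is encoded by 45 bases on the minus strand of chromosome 1, divided between exons 4 and 5 of 5 and lying between positions 171057458 and 171057641. The Fcgr2b ITIM is encoded by 18 bases in exon 7 of 7, on the same strand at chr1:170788640-170788657. Capitals mark the tyrosine codons, of which the ITAM has a pair and the ITIM has 1.
Fcer1g ITAM: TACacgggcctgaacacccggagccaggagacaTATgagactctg
Fcgr2b ITIM: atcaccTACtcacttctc

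A group of 4 genes are neighbours. Fcgr2b (170786186 to 170804177, minus strand), Fcgr4 (170846466 to 170857330, plus strand), Fcgr3 (170878738 to 170893549, minus strand) and Fcer1g (171057141 to 171062219, minus strand) lie within 276 kb of chromosome 1 on GRCm39. Fcgr1 lies on chromosome 3 (96190225 to 96201338, minus strand) and Fcgrt on chromosome 7 (44742412 to 44756819, minus strand). Fcgr3 and Fcgr2b are similar enough to share reads: 33.5% of the Fcgr3 reference transcript matches Fcgr2b, at 96.3% identity over the longest match, and 15% of the Fcgr2b transcript matches Fcgr3. Their reads could therefore have been split between them, and their values are uncertain to that extent. Fcgr2b also shares 6.06% of its exon bases with the antisense RNA Gm38204, and the strand setting of the counting is not given in the sources used here.

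The upstream sequences of the receptors with the largest rise in WT cells are shown because Fcgr1 and Fcgr4 moved together across the libraries. Windows of 250 bases before the RefSeq start (table of GRCm38.p6, matched exactly to GRCm39) were searched on both strands for the GAS element (TTCNNNGAA, bound by STAT dimers), the ISRE core (GAAA, any 2 bases, GAAA, bound by interferon regulatory factors) and the PU.1 core (GAGGAA). Of 27025 such windows, 7.18% hold a GAS match, 3.04% an ISRE match and 23.1% a PU.1 match. The Fcgr1 window holds a GAS match that begins 109 bases before the start, and the Fcgr4 window an ISRE match that begins 73 bases before it. Each of these windows, and that of Fcgr3, also has a PU.1 match. None of the 3 motifs was found in the windows of Fcgr2b, Fcer1g or Fcgrt, which says only that these letters are not in these windows. Exons annotated for the genes themselves cover 187, 250 and 250 of these 250 bases, and 219 in Fcgr3. The parts outside annotated exons are printed, with the GAS match of Fcgr1 (chr3:96201339-96201535, minus strand) and the ISRE match of Fcgr4 (chr1:170846245-170846465, plus strand) in capitals.
Fcgr1 upstream: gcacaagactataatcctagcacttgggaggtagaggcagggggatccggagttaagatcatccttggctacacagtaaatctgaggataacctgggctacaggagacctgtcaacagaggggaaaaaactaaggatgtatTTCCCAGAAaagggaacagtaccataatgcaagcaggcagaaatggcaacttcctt
Fcgr4 upstream: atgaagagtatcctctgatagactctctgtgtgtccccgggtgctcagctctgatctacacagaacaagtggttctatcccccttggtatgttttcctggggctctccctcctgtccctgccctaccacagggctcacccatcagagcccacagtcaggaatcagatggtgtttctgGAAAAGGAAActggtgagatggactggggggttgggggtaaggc

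The values are taken as TPM (transcript abundance relative to the sequenced total and to transcript length), averaged over the transcripts of a symbol, so a gene is compared with itself across libraries and levels of different genes are not ranked. Their sum per library lay between 447189 and 503156 in 11 libraries and was 709802 in WT LPS replicate 3, where protein-coding symbols held 18.5% of the sum against 39.7% to 54.4% elsewhere, and the pseudogene Fth-ps3 held 31.7%. Some results that rest on this library are also given without it. The list counts, medians and genes, and the sizes of the WT LPS effects of Fcgr1, Fcgr4, Fcgr2b, Fcgrt and B2m, are given only with it. Cgas, the targeted gene, averaged 2.75 TPM in WT UT and 2.44 TPM in WT LPS cells, against 0.162 and 0.0866 TPM in the cGAS-/- groups, although 39.9% of its reference transcript also occurs in Gm68924. The 9 macrophage markers in the table averaged at least 1 TPM in every group, except for 1 of them in cGAS-/- LPS cells. Their sum lay between 24070 and 37222 TPM, most of it Lyz2 (15701 to 33426 TPM). Cd68, Mrc1, Mertk, Ctsd, C1qb and C1qc were lower with LPS in both genotypes. C1qa was lower with LPS in cGAS-/- cells and overlapped in WT cells, and Lyz2 and Itgam were higher with LPS in cGAS-/- cells. T and NK cell markers summed to at most 0.962 TPM, dendritic cell markers to at most 2.23 TPM and mast cell markers to at most 1.28 TPM.

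Among the activating receptors, Fcgr1 and Fcgr4 rose strongly with LPS in both genotypes, whereas Fcgr3 fell in cGAS-/- cells and did not pass the test in WT cells. Fcgr1, the high-affinity receptor for monomeric IgG, was at 64.5, 73.4 and 72.7 TPM in WT UT cells and at 487, 720 and 176 TPM in WT LPS cells (replicates 1, 2 and 3). In cGAS-/- cells it was at 63.8, 61.6 and 61.6 TPM without LPS and at 273, 294 and 260 TPM with it. Every LPS library lay above every UT library, but the cGAS-/- LPS values fell between those of WT LPS replicate 3 and the other WT LPS replicates. The LPS effect was 2.48 on the log2(TPM + 1) scale in WT (standard error 0.41, limma with Benjamini-Hochberg adjustment, adjusted p = 0.00131) and 2.13 in cGAS-/- cells (standard error 0.41, limma adjusted p = 0.00428).

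Fcgr4, a receptor of intermediate affinity for IgG2a and IgG2b, was at 90.4, 97.4 and 98.8 TPM in WT UT cells and at 521, 622 and 259 TPM in WT LPS cells. The cGAS-/- libraries gave 40.1, 45.5 and 45.7 TPM without LPS and 260, 285 and 269 TPM with it. The UT values of the genotypes did not overlap and the cGAS-/- mean was 2.18-fold lower, but this difference did not pass the test over all genes (−1.11, 95% interval −1.77 to −0.45, limma adjusted p = 0.129). LPS raised Fcgr4 by 2.19 in WT (limma adjusted p = 3.93e-04) and by 2.61 in cGAS-/- cells (limma adjusted p = 1.30e-04), on the log2 scale.

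Fcgr3, the low-affinity activating receptor for immune complexes, was at 157, 154 and 155 TPM in WT UT cells and at 121, 138 and 46.0 TPM in WT LPS cells. For cGAS-/- cells the values were 116, 111 and 112 TPM without LPS and 49.0, 48.4 and 47.3 TPM with it. As deposited, the LPS libraries thus lay below the UT libraries within each genotype. The fall passed the test in cGAS-/- cells (−1.21, 95% interval −1.99 to −0.43, limma adjusted p = 0.0391) but not in WT cells (−0.75, 95% interval −1.53 to 0.03, limma adjusted p = 0.122). With TMM (trimmed mean of M values) scaling the WT value was −0.024 (limma adjusted p = 0.931), against −0.93 in cGAS-/- cells (limma adjusted p = 0.00259). The WT fall passed under 3 of 26 alternatives, at −1.04 with WT LPS replicate 2 left out (limma adjusted p = 0.0234), −0.26 with replicate 3 left out (limma adjusted p = 0.0404) and −0.79 after rescaling to a common protein-coding total (limma adjusted p = 0.0113). The LPS effects of the 2 genotypes differed by −0.46 (95% interval −1.56 to 0.64), which did not pass the test (limma adjusted p = 0.708). The cGAS-/- call was lost without any 1 of the 9 libraries outside WT LPS, with adjusted p between 0.0619 and 0.116.

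**Figure D1:**
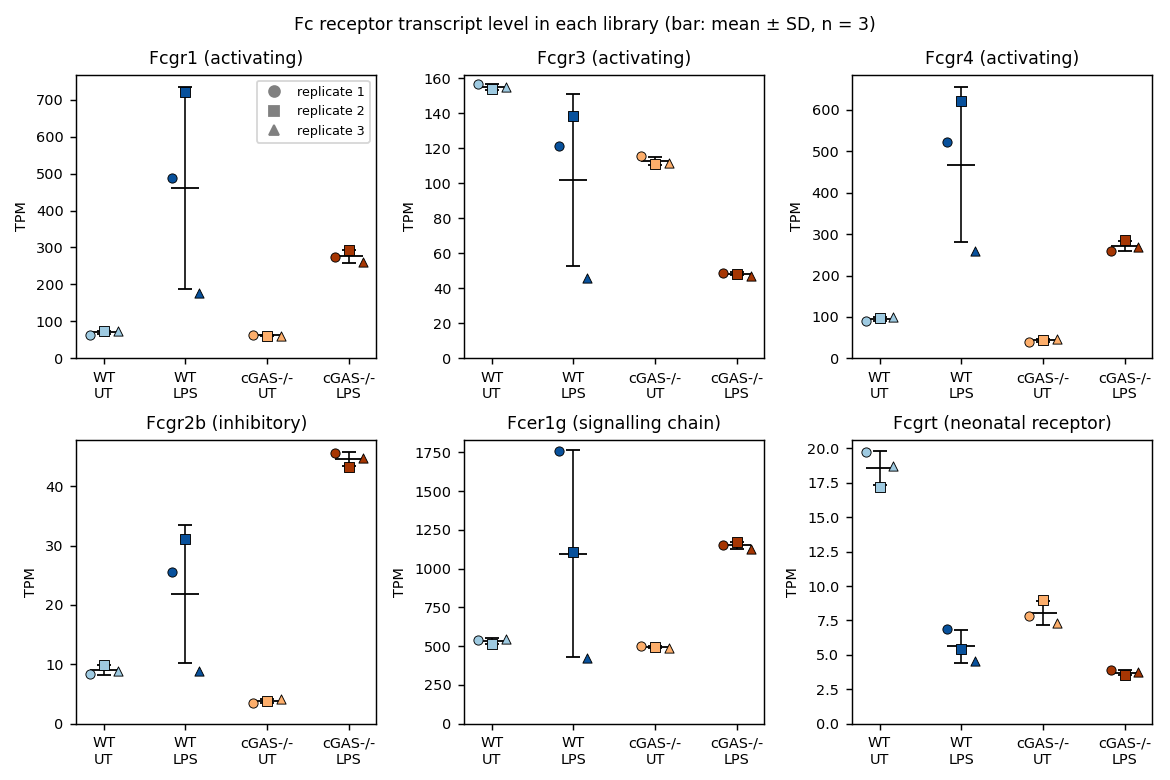
TPM of the 6 genes in each of the 12 libraries, by group, with the mean ± SD of 3 libraries and a marker for each replicate number. WT LPS replicate 3 (dark blue triangle) lies lowest of the WT LPS libraries in every panel, and for Fcgr3 it lies at 46.0 TPM, beside the cGAS-/- LPS values of 47.3 to 49.0 TPM.

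The inhibitory receptor Fcgr2b had the largest response to LPS among the 6 genes in cGAS-/- cells on the log2(TPM + 1) scale. With 5 TPM added in place of 1, Fcgr4 rose by 2.50 and Fcgr2b by 2.48. Fcgr2b was at 8.31, 9.89 and 8.83 TPM in WT UT cells and at 25.6, 31.1 and 8.87 TPM in WT LPS cells. In cGAS-/- cells it was at 3.53, 3.89 and 4.21 TPM without LPS and at 45.6, 43.3 and 44.7 TPM with it. The cGAS-/- group therefore held the lowest values without LPS and the highest with it, and neither set overlapped with WT. The mean rose 11.5-fold with LPS in cGAS-/- cells (3.22 on the log2 scale, 95% interval 2.41 to 4.04, limma adjusted p = 1.21e-04) and 2.42-fold in WT cells (1.03, 95% interval 0.22 to 1.84, limma adjusted p = 0.0545), where replicate 3 stayed within the UT range. The WT rise passed under 7 of 26 alternatives, among them TMM scaling (1.70, limma adjusted p = 8.53e-05) and quantile normalization (1.43, limma adjusted p = 7.85e-04). The difference between these LPS effects was 2.20 (95% interval 1.05 to 3.35) and did not pass the test over all genes (limma adjusted p = 0.0875). It passed when WT LPS replicate 3 was left out (1.68, limma adjusted p = 5.37e-04) and when replicate 2 of that group was (2.53, limma adjusted p = 0.0111). It also passed with TMM scaling (1.75, limma adjusted p = 0.00764), with quantile normalization (1.93, limma adjusted p = 0.0107), with sample weights (1.85, limma adjusted p = 0.00352) and after rescaling to a common protein-coding total (1.97, limma adjusted p = 0.014).

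Because B cells express Fcgr2b, their markers were read beside it. The 6 B cell markers in the table summed to between 108 and 134 TPM in WT UT, 30.6 and 44.9 in WT LPS, 19.9 and 28.5 in cGAS-/- UT, and 3.04 and 8.84 TPM in cGAS-/- LPS cells. Nearly all of this was the immunoglobulin genes Ighm and Igkc, whereas Pax5 lay at or below 0.0221 TPM in every library. These sums fell with LPS in both genotypes, in the direction opposite to Fcgr2b, and their part in the lower Fcgr2b of cGAS-/- UT cells was not tested. In RNA of a whole culture, fewer cells of a type and less RNA per cell cannot be told apart. Neutrophil markers, of interest because neutrophils carry Fcgr3 and Fcgr4, summed to between 154 and 225 TPM in WT UT, 71.7 and 141 in cGAS-/- UT, 68.1 and 382 in WT LPS, and 71.4 and 90.2 TPM in cGAS-/- LPS cells. The UT sums did not overlap between genotypes and were lower in cGAS-/- cells, as Fcgr3 and Fcgr4 were, but the markers did not move as one. S100a8, S100a9 and Cxcr2 overlapped between the UT groups. Ngp was at 24.1 to 32.3 TPM in WT UT against 0.657 to 3.13 TPM in cGAS-/- UT cells. Camp, Ltf, Elane and Mpo were also lower in cGAS-/- UT cells without overlap, at 6.25 TPM or less. Csf3r alone lay the other way, at 11.6 to 14.6 against 14.8 to 19.3 TPM. Their part was likewise not tested.

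The signalling chain Fcer1g had higher means with LPS in both genotypes. It was at 538, 512 and 548 TPM in WT UT cells and at 1756, 1109 and 421 TPM in WT LPS cells. The cGAS-/- libraries gave 503, 494 and 490 TPM without LPS and 1150, 1175 and 1124 TPM with it. The cGAS-/- groups did not overlap, with a 2.32-fold higher mean in LPS cells, but neither LPS effect passed the test (1.21 in cGAS-/-, limma adjusted p = 0.0634, and 0.81 in WT, limma adjusted p = 0.133). Both passed without WT LPS replicate 3, with limma adjusted p = 9.00e-05 in cGAS-/- and 9.51e-05 in WT cells.

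Fcgrt, the neonatal receptor, was lower after LPS in both genotypes. It was at 19.7, 17.2 and 18.8 TPM in WT UT cells and at 6.88, 5.44 and 4.52 TPM in WT LPS cells. For cGAS-/- cells the values were 7.84, 9.02 and 7.30 TPM without LPS and 3.88, 3.53 and 3.73 TPM with it. No pair of compared groups overlapped. LPS lowered the mean 3.31-fold in WT (limma adjusted p = 2.23e-04) and 2.17-fold in cGAS-/- cells (limma adjusted p = 0.0075), log2 changes of −1.58 and −0.94. TMM scaling reduced these to −0.92 (limma adjusted p = 0.0116) and −0.69, where the cGAS-/- call was lost (limma adjusted p = 0.0526). B2m, which encodes its partner beta-2-microglobulin, rose in both (1.25 in WT, limma adjusted p = 0.0159, and 1.39 in cGAS-/- cells, limma adjusted p = 0.0139).

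Between genotypes, Fcgrt was the 1 gene of the 6 that passed the test in UT cells, where 1.82% of all tested genes did. Its mean was 2.31-fold lower in cGAS-/- cells (−1.11 on the log2 scale, 95% interval −1.55 to −0.68, limma adjusted p = 0.0152). That call was lost without any 1 of the 6 UT libraries, with adjusted p between 0.0574 and 0.131. All 6 genes had lower means in cGAS-/- UT cells, with a median log2 difference of −0.75 against −0.03 over all tested genes. Fcgr1 (−0.17) and Fcer1g (−0.10) differed little. When WT LPS replicate 3 was left out, Fcgr3 (−0.46, limma adjusted p = 0.00713), Fcgr4 (limma adjusted p = 1.32e-04) and Fcgr2b (−1.04, limma adjusted p = 3.89e-04) passed as well, while the share of all tested genes that passed grew to 6.04%. All groups share one estimate of the spread in the fit, so this library bears on the UT comparison too.

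In LPS cells none of the 6 genes passed between genotypes, where 2.6% of all tested genes did (limma, 256 genes, with 1995 at an unadjusted p under 0.05). The 3 activating receptors had lower means in cGAS-/- LPS cells, by 1.67-fold for Fcgr1, 2.11-fold for Fcgr3 and 1.72-fold for Fcgr4, and each overlapped with WT through replicate 3. Fcgr2b had a 2.04-fold higher mean without overlap (1.16, 95% interval 0.35 to 1.97, limma adjusted p = 0.131). The median log2 difference was −0.50 over the 6 genes and 0.27 over all tested genes. Without WT LPS replicate 3, where the median of all genes was 0.06 and 9.9% of them passed, 5 of the 6 genes passed: Fcgr1 fell by 1.10, Fcgr3 by 1.41, Fcgr4 by 1.07 and Fcgrt by 0.60 in cGAS-/- relative to WT, and Fcgr2b rose by 0.64 (limma adjusted p between 1.23e-05 and 0.0194). From the 6 LPS libraries alone, none passed, as against 0.0812% of all tested genes.

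With LPS against UT, 3 of the 6 genes passed in WT cells (Fcgr1 and Fcgr4 higher, Fcgrt lower), where 30.8% of all tested genes did. The number was 5 in cGAS-/- cells (Fcgr1, Fcgr4 and Fcgr2b higher, Fcgr3 and Fcgrt lower), where 15.8% of all did. The log2 change exceeded 2 for Fcgr1 and Fcgr4 in both genotypes and for Fcgr2b in cGAS-/- cells. None of the 6 passed for the interaction term (LPS effect in cGAS-/- minus that in WT), where 0.974% of all did (limma, 96 genes, with 1089 at an unadjusted p under 0.05). The median log2 change of the 6 genes was 0.92 in WT and 1.67 in cGAS-/- cells, against −0.55 and −0.22 over all tested genes. Scaling by TMM moved the latter medians to −0.08 and −0.02, and 5 of the 6 genes then passed in each genotype, beside 22.6% of all tested genes in WT and 16.3% in cGAS-/- cells. Fcgr2b and Fcer1g were added in WT cells, and Fcer1g took the place of Fcgrt in cGAS-/- cells. These comparisons share their UT or LPS libraries, so they are not independent of one another.

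**Figure D2:**
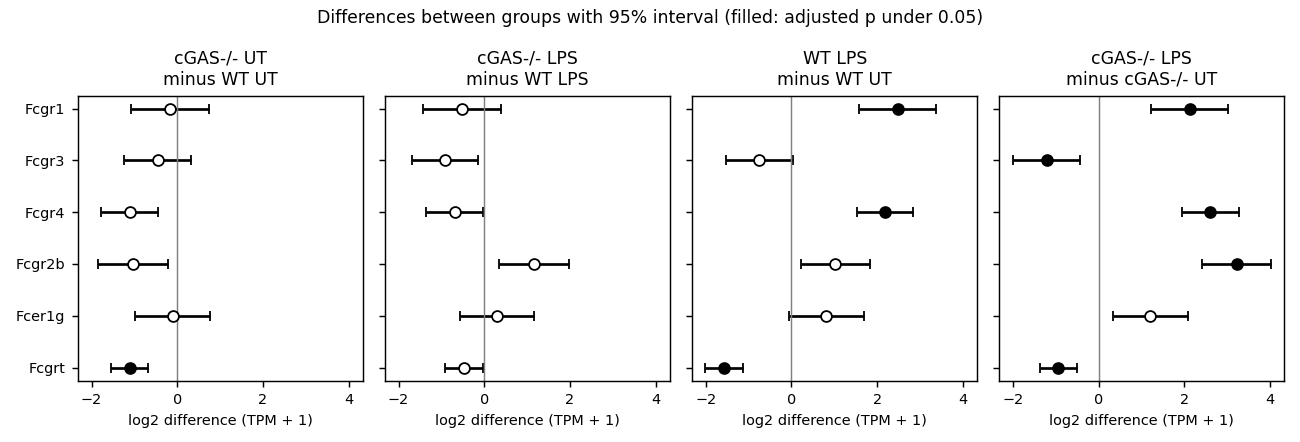
Log2 difference in TPM + 1 for each gene in 4 comparisons, with the 95% interval of the limma fit over 12 libraries. Filled points passed an adjusted p of 0.05. Fcgr2b lies at −1.04 for cGAS-/- against WT in UT cells and at 1.16 in LPS cells, on opposite sides of 0.

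The balance of activating over inhibitory receptors was then read within each library as the log2 ratio of TPM, which no scaling of a whole library can change. Since each level is an average over an unknown number of transcripts, the ratios compare groups and do not count molecules. WT LPS replicate 3 was less apart here than in its levels: the SD over the WT LPS libraries was 0.15 for Fcgr1, 0.11 for Fcgr3 and 0.31 for Fcgr4 over Fcgr2b, in log2 units.

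Fcgr1 over Fcgr2b was at 2.96, 2.89 and 3.04 in WT UT cells and rose to 4.25, 4.53 and 4.31 with LPS. In cGAS-/- cells it was at 4.18, 3.99 and 3.87 and fell to 2.58, 2.77 and 2.54. LPS thus moved the ratio 2.64-fold up in WT and 2.61-fold down in cGAS-/- cells, with no overlap of groups in either.

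Fcgr4 over Fcgr2b was at 3.44, 3.30 and 3.48 in WT UT cells and at 4.35, 4.32 and 4.87 in WT LPS cells. The cGAS-/- libraries gave 3.51, 3.55 and 3.44 without LPS and 2.51, 2.72 and 2.59 with it. The UT groups overlapped (difference 0.09, exact permutation p = 0.3), and with LPS the cGAS-/- group was 3.75-fold lower.

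Fcgr3 over Fcgr2b fell with LPS in both genotypes. It was at 4.24, 3.96 and 4.13 in WT UT cells and at 2.24, 2.15 and 2.38 in WT LPS cells, a 3.61-fold fall. For cGAS-/- cells the values were 5.04, 4.83 and 4.73 without LPS and 0.10, 0.16 and 0.08 with it, a 26.9-fold fall. This pair is the one whose reads could have been split.

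**Figure D3:**
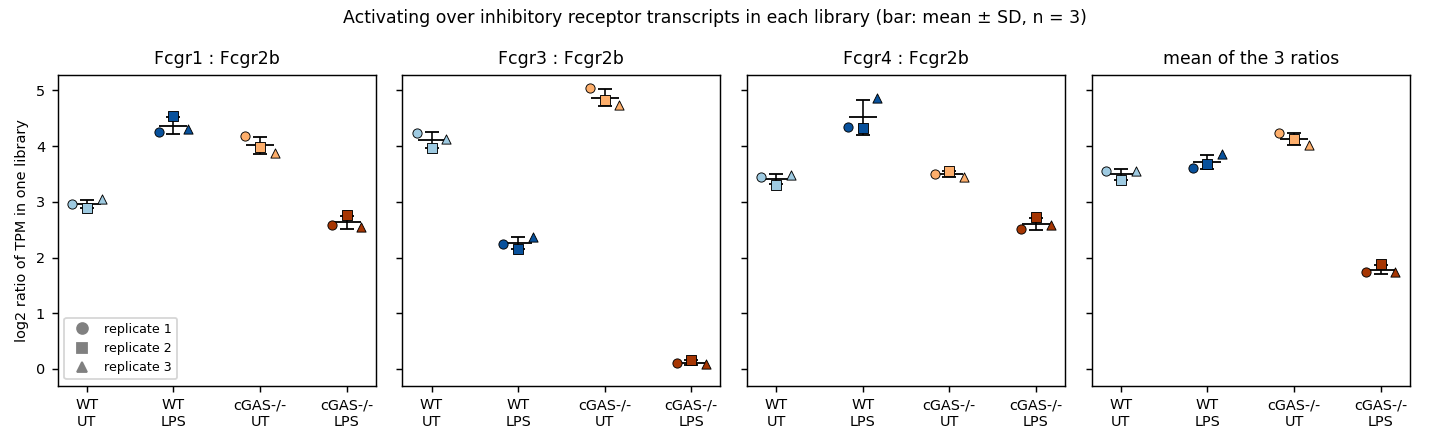
Log2 ratio of the TPM of each activating receptor to that of Fcgr2b in each library, and the mean of the 3 ratios, with mean ± SD of 3 libraries per group. The cGAS-/- LPS libraries lie lowest in every panel, at 1.73 to 1.88 for the mean ratio against 3.61 to 3.85 in WT LPS cells.

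For each of the 3 ratios the 3 cGAS-/- LPS libraries lay below the 3 WT LPS libraries, by 1.74 for Fcgr1, 2.14 for Fcgr3 and 1.91 for Fcgr4 on the log2 scale. Each gave p = 0.1 in the exact two-sided permutation test, the smallest that 3 libraries against 3 allow. The mean of the 3 ratios was 3.49 ± 0.10 (SD, n = 3) in WT UT, 3.71 ± 0.12 in WT LPS, 4.13 ± 0.11 in cGAS-/- UT and 1.78 ± 0.08 in cGAS-/- LPS cells. It was therefore 1.55-fold higher in cGAS-/- than in WT cells without LPS and 3.81-fold lower with LPS. Leaving out any 1 library kept the LPS difference between −1.98 and −1.86.

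How far the effect of LPS on each ratio differed by genotype was put to an exact permutation test of the genotype labels within each treatment (400 arrangements, smallest possible p = 0.005), which was added after the values were seen. The difference, cGAS-/- minus WT, was −2.78 for Fcgr1 over Fcgr2b (exact permutation p = 0.005), −2.90 for Fcgr3 over Fcgr2b (exact permutation p = 0.005) and −2.00 for Fcgr4 over Fcgr2b (exact permutation p = 0.015), without adjustment. The same test was run on 7 ratios in all. Without WT LPS replicate 3 these differences were −2.81, −2.84 and −1.82. All 3 share the Fcgr2b values, so they are not 3 independent results.

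Among the activating receptors themselves, Fcgr4 gained on Fcgr3 in both genotypes. Their log2 ratio was at −0.79, −0.66 and −0.65 in WT UT cells and at 2.11, 2.17 and 2.49 in WT LPS cells. In cGAS-/- cells it was at −1.53, −1.29 and −1.29 without LPS and at 2.41, 2.56 and 2.51 with it. LPS raised it 7.76-fold in WT and 14.5-fold in cGAS-/- cells, a log2 difference between these effects of 0.90 (exact permutation p = 0.01), or 1.02 with replicate 3 of WT LPS left out. Before LPS, all cGAS-/- libraries lay below the WT libraries (difference −0.67, exact permutation p = 0.1), while the LPS groups overlapped (difference 0.23, exact permutation p = 0.2). Relative to the chain Fcer1g, LPS lowered Fcgr3 2.97-fold in WT and 5.42-fold in cGAS-/- cells, raised Fcgr4 2.61-fold and 2.68-fold, and raised Fcgr1 3.21-fold and 1.91-fold. The genotypes did not differ detectably in these LPS effects (exact permutation p = 0.18 for Fcgr3, 0.99 for Fcgr4 and 0.14 for Fcgr1).

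The patterns of the genes across the 12 libraries were alike within 2 sets, Fcgr1, Fcgr4, Fcgr2b and Fcer1g in one and Fcgr3 and Fcgrt in the other. Pearson's r over log2(TPM + 1) was 0.96 between Fcgr1 and Fcgr4, 0.85 between Fcgr1 and Fcgr2b, 0.87 between Fcgr2b and Fcer1g and 0.84 between Fcgr3 and Fcgrt, given as a description since the 12 points share their libraries and group structure. The closest genes in the table were Isg20 (r = 0.99) for Fcgr1 and Cmpk2 (r = 0.99) for Fcgr4, both known as interferon-stimulated genes, C1qc (r = 0.98) and C1qb (r = 0.98) of complement C1q for Fcgr3, Igsf6 (r = 0.98) for Fcgr2b after the predicted gene Gm29408 (r = 0.98), Lrrc25 (r = 0.98) for Fcer1g, and the proliferation genes Birc5 (r = 0.98) and Rrm2 (r = 0.97) for Fcgrt. Isg20 averaged 0.679 TPM in WT UT, 38.7 in WT LPS, 0.351 in cGAS-/- UT and 12.8 TPM in cGAS-/- LPS cells. Igsf6 averaged 123, 237, 86.0 and 409 TPM in the same order, so that, as for Fcgr2b, its mean was highest in cGAS-/- LPS cells. Birc5 averaged 16.7, 0.631, 2.50 and 0.327 TPM.

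The partners of the receptors were read from 5 lists chosen by role, and none of their tested genes passed between genotypes, with or without LPS, or for the difference between LPS effects. Since 1.82%, 2.6% and 0.974% of all tested genes passed there, nothing is read from these counts of 0. Of 22 tested genes that carry the activating signal, 1 rose and 6 fell with LPS in WT cells and 4 rose and 3 fell in cGAS-/- cells. Over all tested genes, 4.86% rose and 25.9% fell with LPS in WT cells, and 5.56% rose and 10.2% fell in cGAS-/- cells, which together give the 30.8% and 15.8% above. The adaptor Lat2 fell in both (−2.04, limma adjusted p = 0.00468 in WT and −2.18, limma adjusted p = 0.00403 in cGAS-/-). Lcp2, which encodes the adaptor SLP-76, rose by 2.37 in cGAS-/- cells (limma adjusted p = 0.00182), from 9.24 to 51.7 TPM. The list's median change was −0.48 in WT and −0.04 in cGAS-/- cells, against −0.55 and −0.22 over all tested genes.

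Of 11 tested genes of inhibitory signalling, the receptor Sirpa fell in WT (−1.21, limma adjusted p = 0.0436) and the adaptor Dok3 rose in cGAS-/- cells (1.01, limma adjusted p = 0.0242), and no other passed. Of 23 tested genes of phagocytosis and the NADPH oxidase, none rose in either genotype, while 6 fell with LPS in WT cells and 3 in cGAS-/- cells. These counts are near the shares of all tested genes that fell, 25.9% and 10.2%, so they are no result about this list. The actin-severing protein gene Gsn (−1.65 and −1.41) and the engulfment genes Elmo1 (−1.15 and −1.19) and Dock1 (−1.12 and −0.85) fell in both. The medians were −0.42 in WT and 0.17 in cGAS-/- cells for inhibitory signalling and −0.58 and −0.14 for phagocytosis.

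Of 13 tested transcription factors and cytokine receptors known to set Fc receptor levels, 4 rose and 5 fell with LPS in WT cells, and 4 rose and 3 fell in cGAS-/- cells, where 30.8% and 15.8% of all tested genes passed in either direction. Irf1 (1.15 and 0.93), Cebpb (1.76 and 1.78) and Il4ra (1.56 and 1.14) rose in both. Cebpa (−3.75 and −3.06) and the transforming growth factor beta receptor Tgfbr1 (−2.25 and −2.64) fell in both. The list's medians were −0.30 and 0.21.

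Of 6 tested relatives and adaptor chains, B2m rose, and the Fc receptor-like genes Fcrls and Fcrl1 fell with LPS in both genotypes, where the shares of all tested genes that passed were the same 30.8% and 15.8%. Fcrls, a scavenger-type relative, went from 75.0 to 5.36 TPM in WT cells (−3.72, limma adjusted p = 2.61e-05) and from 60.5 to 14.7 TPM in cGAS-/- cells (−1.97, limma adjusted p = 0.00216). The medians were −0.55 and −0.64. A further 10 of the 17 genes listed were below the filter in these macrophages, among them Fcer1a, the ligand-binding chain of the IgE receptor.

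**Figure D4:**
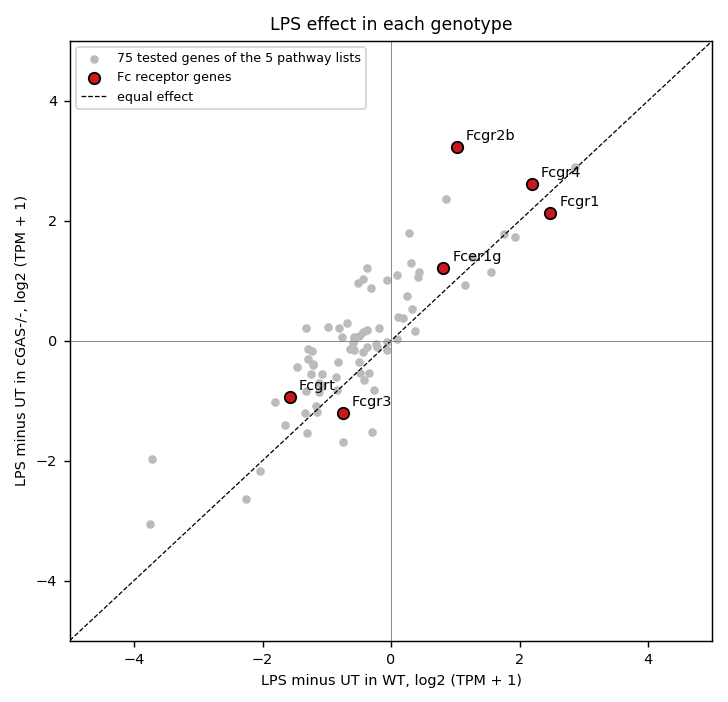
Effect of LPS in WT (horizontal) and in cGAS-/- cells (vertical) on the log2(TPM + 1) scale, for the 6 genes (red) and for the tested genes of the 5 lists (grey), with the line of equal effect. Fcgr2b lies at 1.03 and 3.22, above the line, while Fcgr1 lies at 2.48 and 2.13, just under it.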

How the data were processed

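RNA-seq of 12 BMDM libraries (3 for each genotype and treatment) was read from 1 normalised table. Per the labels and methods, the authors used fastp, the aligner STAR, the genome build GRCm39 and kallisto, with versions not given in the sources used here. The deposited values were taken as kallisto TPM averaged over the transcripts of a symbol. No source names the unit, which rests on the values themselves, and the depth is unknown, so counting error cannot be given. The table stops on chromosome 13, and genes beyond it are not analysed here. The methods' figure legend speaks of technical replicates, so p-values measure the spread between these libraries, which may be technical.

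Symbols with at least 1 TPM in at least 3 libraries (9855 of 38739) were taken as log2(TPM + 1). Limma 3.58.1 (R 4.3.3), with a variance trend, was fitted over all 12 libraries with a mean per group, and p-values were adjusted by Benjamini-Hochberg over the tested genes and called under 0.05. The log2 scale understates changes of low values. The methods' additional log2 fold change limit of 2, other pseudocounts, filters, scalings, sample weights, a replicate block, the 6 compared libraries alone and leaving out each library were alternatives. Protein-coding genes alone and a common total (over all or over protein-coding symbols) were tried as well, having been chosen after seeing the data. The fit was tested on simulated data. Ratios were tested by exact permutation. Genes were named by membership, by the highest r to each member (2 per gene) and by the largest called changes in the lists, and a few others were chosen after their values were seen. Replicate numbers did not pair the libraries (correlations of deviations between −0.04 and 0.05). Transcripts were compared by blastn 2.17.0, and motifs were searched with Biopython 1.88. The genes, the lists and the tests were chosen with earlier results of these data known. A few of the listed genes are not reported here by name.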

Additional observations from a re-analysis of the deposited data

Results flagged for a closer look

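The LPS effect on the ratio of each activating receptor to Fcgr2b differed between genotypes in the exact permutation test at p under 0.05, unadjusted over the 7 ratios tested. The log2 difference, cGAS-/- minus WT, was −2.78 for Fcgr1 over Fcgr2b, −2.90 for Fcgr3 over Fcgr2b and −2.00 for Fcgr4 over Fcgr2b. For Fcgr1 and Fcgr4 every WT LPS library lay above every WT UT library, while every cGAS-/- LPS library lay below every cGAS-/- UT library. For Fcgr3 the ratio was lower with LPS in both genotypes, and by more in cGAS-/- cells. The LPS effect on Fcgr4 over Fcgr3 differed as well, by 0.90. For single genes, the interaction term passed for none of the 6 as deposited, but Fcgr2b passed under 6 of 25 alternatives, TMM factors, quantile normalization and sample weights among them. Fcgr3 passed under 2 of them and Fcgr1 under 1, the omission of WT LPS replicate 3.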

How the results depend on the processing

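The number of the 6 genes that passed was 1 in the UT comparison of genotypes, 0 in the LPS comparison, 3 for LPS in WT, 5 for LPS in cGAS-/- and 0 for the difference between LPS effects. In the same order it was 3, 5, 5, 5 and 1 with TMM factors, 2, 2, 4, 6 and 1 with quantile normalization, 4, 2, 5, 6 and 2 with sample weights, 0, 0, 2, 3 and 0 with the log2 limit of 2, and 2, 3, 6, 6 and 1 after rescaling to a common protein-coding total. For the difference between LPS effects, each of these was Fcgr2b, joined by Fcgr3 under sample weights (−0.83, limma adjusted p = 0.0313). The shares of all tested genes that passed, in the same order, were 1.98, 5.03, 22.6, 16.3 and 1.43% with TMM factors, 2.26, 6.1, 23.9, 19 and 1.76% with quantile normalization, 14.3, 2.96, 22.4, 55 and 2.96% with sample weights, 0.446, 0.741, 5.29, 4.22 and 0.507% with the log2 limit, and 2.08, 3.04, 44.4, 25.3 and 1.18% after rescaling. From the 6 UT libraries alone 4 passed, with 12.4% of all tested genes. Leaving out 1 library at a time gave 0 to 4, 0 to 5, 3 to 6, 4 to 6 and 0 to 3, with the highest counts without WT LPS replicate 3, where the shares of all genes were 6.04, 9.9, 39.9, 36 and 5.58%. Over the 12 omissions these shares ranged from 0.623 to 6.04%, 0.666 to 34%, 17.2 to 54.6%, 10.1 to 36% and 0.311 to 16.2%. The 34, 54.6 and 16.2% came without WT LPS replicate 2. The replicate block gave 1, 0, 3, 4 and 0 (1.36, 1.83, 27.9, 14 and 0.528% of all genes), with the Fcgr3 call in cGAS-/- cells lost (limma adjusted p = 0.0532).

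Signs turned for genes that had not passed. Between genotypes with LPS, Fcer1g was at 0.30, at −0.14 under TMM factors, at −0.31 under sample weights and between −0.28 and 0.75 with 1 library left out, lowest when WT LPS replicate 3 was. Its UT difference turned to 0.014 under quantile normalization. For the interaction term it turned under TMM factors (−0.055) and sample weights (−0.22) and ranged from −0.18 to 0.85 with 1 library left out. Fcgr4 turned there under TMM factors (−0.035), and Fcgr1 ranged from −0.93 to 0.080, highest when WT LPS replicate 2 was left out. The cause was not tested.

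The mean log2 ratio of activating receptors to Fcgr2b kept its direction in all comparisons. A pseudocount of 1 moved its genotype difference in UT cells from 0.63 to 0.46 and its LPS effect in cGAS-/- cells from −2.34 to −2.05, and summing the activating receptors moved the latter to −2.08 and the LPS effect in WT from 0.22 to 0.44. Summing over transcripts was not run, since their number per symbol could not be recovered. No interval for counting error is possible without the depth.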
